A study of Mus musculus with 4 samples.

Results

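A set of 10 genes of the oxygen-sensing pathway and of glucose uptake was read in follicular helper CD4+ T (TFH) cells with and without *Rictor*. They were *Hif1a* and its partner *Arnt*, the prolyl hydroxylase genes *Egln1*, *Egln2* and *Egln3*, the ubiquitin ligase gene *Vhl*, the glucose transporter genes *Slc2a1* and *Slc2a3*, and the HIF target genes *Bnip3* and *Ankrd37*. Members were chosen by name, and every probe set whose platform symbol was exactly one of these names was taken, which gave 25 of 45037 probe sets. A gene was represented by its brightest probe set by mean over the 4 arrays, so that the members are 10 of 18193 genes measured. TFH cells were sorted from spleens 8 days into an acute viral infection with LCMV Armstrong, and each genotype, *Rictor*-/- and WT, was measured on 2 arrays. *Rictor*-/- mice, labelled *Rictor*-null, were *Rictor* fl/fl mice carrying *Cd4*-Cre, and WT mice were *Rictor* fl/fl littermates, so that both groups carried the floxed alleles and the controls lacked Cre. *Cd4*-Cre is also active in the precursors of CD8 T cells, so that deletion was not limited to TFH cells. The mice were young adults of both sexes, each array was made from a pool of mice, and for the sort gate the methods point to earlier work.

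Rictor is the defining subunit of mTORC2, a kinase complex that acts on AKT. HIF-1 is a transcription factor made of HIF-1α, encoded by *Hif1a*, and ARNT. With oxygen present, the prolyl hydroxylases attach hydroxyl groups to prolines of HIF-1α, and the VHL ubiquitin ligase then binds the protein and marks it for degradation. When HIF-1α is stable it binds DNA at hypoxia response elements and raises the transcription of genes of glycolysis, of glucose transporters, of mitophagy and of *Egln1* and *Egln3* themselves, which form a feedback loop. Activated T cells use HIF-1 to sustain glycolysis, and GLUT1 and GLUT3, encoded by *Slc2a1* and *Slc2a3*, bring in glucose. HIF-1α is controlled largely as a protein, and the arrays measured mRNA only.

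The core letters of a hypoxia response element, ACGTG, were looked for on both strands in the promoters of the members, from 250 bases before to 50 after the transcription start in the RefSeq table of GRCm38.p6. The table held 10 promoters for 9 members, *Egln2* having more than 1, and no entry matched *Slc2a3*. ACGTG was found in 7 of the 9 members (77.8%) and in 7 of the 10 promoters (70%), and in 19.6% of the 32851 promoters in the table and 22.9% of the 18109 promoters of measured genes. *Arnt* and *Vhl* held none in this window. GCGTG, a common variant of these letters, was found in 6 of the 9 members (66.7%) and in 7 of the 10 promoters (70%). It was found in 32.4% of all promoters and in 43.3% of those of measured genes. A run of CACGTG reads as ACGTG on both strands and was counted on each, as in *Hif1a*, *Egln2* and *Bnip3*. A match is a description of the letters and not a binding site. The 250 bases before the start are shown for the 3 members whose mRNA was lower in *Rictor*-/- cells, *Egln3* (chr12:54203875-54204124, minus strand), *Hif1a* (chr12:73907617-73907866, plus strand) and *Egln1* (chr8:124949255-124949504, minus strand), and for *Slc2a1* (chr4:119108495-119108744, plus strand), which also holds the letters and did not pass the test. Each runs 5′ to 3′ along the gene's strand, with ACGTG or its reverse complement CACGT in capitals, the pair being fused where they overlap.
Egln3: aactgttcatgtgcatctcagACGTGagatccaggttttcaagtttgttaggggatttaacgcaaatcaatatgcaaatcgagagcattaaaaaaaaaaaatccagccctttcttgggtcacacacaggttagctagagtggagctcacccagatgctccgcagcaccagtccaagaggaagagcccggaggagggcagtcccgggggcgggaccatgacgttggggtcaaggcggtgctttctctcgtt
Hif1a: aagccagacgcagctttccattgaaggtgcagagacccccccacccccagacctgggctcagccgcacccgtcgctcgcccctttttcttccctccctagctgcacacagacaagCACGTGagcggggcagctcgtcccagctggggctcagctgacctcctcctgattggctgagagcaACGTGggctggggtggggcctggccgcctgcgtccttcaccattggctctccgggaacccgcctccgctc
Egln1: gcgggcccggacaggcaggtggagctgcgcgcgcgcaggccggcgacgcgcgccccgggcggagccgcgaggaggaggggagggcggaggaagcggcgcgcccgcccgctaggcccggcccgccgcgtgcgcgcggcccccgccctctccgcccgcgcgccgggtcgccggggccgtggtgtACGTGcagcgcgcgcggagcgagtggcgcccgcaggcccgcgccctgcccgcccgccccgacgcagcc
Slc2a1: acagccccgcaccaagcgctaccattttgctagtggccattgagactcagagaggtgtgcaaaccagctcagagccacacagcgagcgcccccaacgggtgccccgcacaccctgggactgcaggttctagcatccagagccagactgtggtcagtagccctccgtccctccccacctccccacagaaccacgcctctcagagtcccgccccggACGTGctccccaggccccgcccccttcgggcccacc

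Counting from the transcription start, the match began at base -229 in *Egln3*, at -68 in *Egln1* and at -36 in *Slc2a1*. In *Hif1a* the overlapping pair began at -135 and -134 and a further match at -70. Among the members not printed, *Ankrd37* held ACGTG at -241 and -6, *Bnip3* at -108 and -107 and *Egln2* at -48, -4 and -3.

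Array medians lay between 19.98 and 20.4 intensity units, and log2 values of arrays of one group correlated with r = 0.998 across probe sets, against 0.993 to 0.994 between groups. *Rictor* itself averaged 273 in *Rictor*-/- and 318 in WT cells (log2 fold change -0.21, limma adjusted p = 0.0366). This reading depends on whether the probes lie in the deleted exons, which is not known here. In the paper's own measurement, sorted *Rictor*-/- TFH cells held no detectable *Rictor* mRNA. All 11 TFH and CD4 T cell markers lay above the median of every array, and 8 of them were lower in *Rictor*-/- cells, among them *Cxcr5* and *Bcl6*. Their summed intensity was 16187 and 16411 in *Rictor*-/- and 19444 and 18866 in WT cells. Of the 13 myeloid markers 5 were higher in *Rictor*-/- cells and the sum was 705 and 636 against 429 and 397, with *C1qa*, *C1qb*, *C1qc* and *Cd14* not above the array medians. Plasma cell markers (2 of 3 higher) summed to 495 and 460 against 184 and 175, and CD8 and NK cell markers (1 of 3 higher) to 173 and 158 against 126 and 119. Of 8 B cell markers 2 were higher and only *Ighm* was above the median on all arrays, and of 3 red cell markers 2 were higher with none above it throughout. All 11 mitosis genes measured were higher in *Rictor*-/- cells, by 0.52 on the log2 scale at the median. Over all genes 12.5% were higher and 7.18% lower at a limma adjusted p under 0.05. These differences run in the same samples as every comparison that follows, and their part in it was not tested. In bulk samples fewer cells of a type and less RNA per cell cannot be told apart.

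By the brightest probe set of each gene, *Rictor*-/- TFH cells held less *Hif1a*, *Egln1* and *Egln3* mRNA than WT cells and more *Slc2a3* and *Vhl* mRNA. These calls were not equally firm. The second-brightest probe sets of *Hif1a* and *Egln1* did not pass, and *Vhl* kept its call in 7 of 14 alternative analyses. The largest differences were those of *Egln3*, 1.79-fold higher in WT cells, and of *Slc2a3*, 1.85-fold higher in *Rictor*-/- cells, as ratios of mean intensities. Of the 10 members, 2 were higher and 3 lower in *Rictor*-/- cells at a limma adjusted p under 0.05, where 12.5% of all genes were higher and 7.18% were lower. The values of the groups did not overlap for 8 of the 10 members, as for 55.5% of all genes. The median log2 fold change of the members was -0.14, and that of all genes 0.0068. Fold changes are *Rictor*-/- minus WT on the scale log2(intensity + 16), which understates the change of dim genes, and an intensity compares samples and not genes. All 10 members lay above the median intensity of every array. With 2 pools a group, limma p-values rest on how far those pools differ and also on a variance trend fitted over all genes. They therefore do not measure the spread between pools of a gene alone. An exact test of 2 against 2 arrays cannot give a two-sided p below 0.333.

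**Figure D1:**
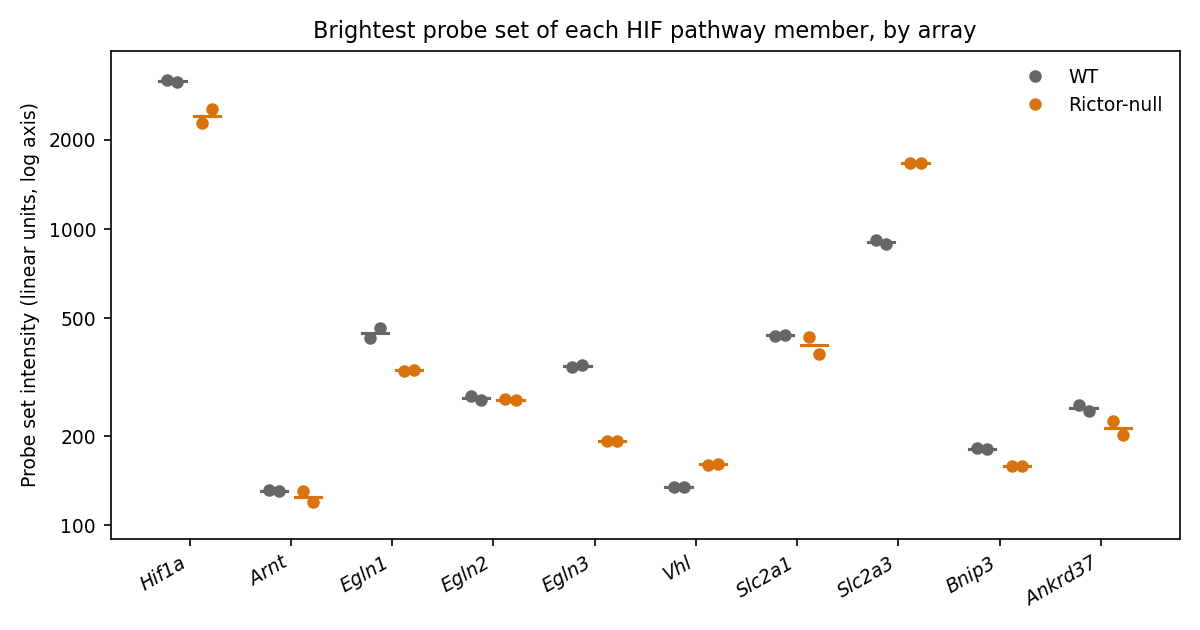
Intensity of the brightest probe set of each member on a log axis in linear intensity units, with a point for each of the 2 *Rictor*-/- (orange) and 2 WT (grey) arrays and a line at each group mean. *Egln3*, *Egln1* and *Hif1a* lie lower and *Slc2a3* and *Vhl* higher in *Rictor*-/- cells, while the groups overlap for *Arnt* and *Egln2*.

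*Hif1a*, which encodes the oxygen-regulated subunit, read 2277 and 2545 intensity units in *Rictor*-/- and 3184 and 3139 in WT cells. Both *Rictor*-/- arrays were below both WT arrays, and the mean fell from 3161 ± 31.4 to 2411 ± 190 (SD, n = 2 arrays each). The log2 fold change was -0.39 (SE 0.05, 95% interval -0.50 to -0.28), with a limma adjusted p of 0.000153 across all genes, the 255th largest fall of 18193 genes. Its second probe set read 522 and 516 against 569 and 542, a log2 fold change of -0.09 (SE 0.05), and did not pass a limma fit over all probe sets (adjusted p = 0.361). Another read 94.6 and 221 against 222 and 165, and the faintest 21.9 and 57.2 against 85.6 and 39.4. In both of these the groups overlapped, with log2 fold changes of -0.36 (SE 0.27) and -0.51 (SE 0.30), so that all 4 probe sets had the same sign but only the brightest passed. Averaging the 4 in place of the brightest, the log2 fold change was -0.34 and the call was lost (limma adjusted p = 0.263).

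*Arnt*, the constant partner of HIF-1α, read 130.2 and 119.7 in *Rictor*-/- and 132 and 130.0 in WT cells. The arrays overlapped, and the log2 fold change was -0.06 with a 95% interval of -0.22 to 0.10 (limma adjusted p = 0.666). Its other 4 probe sets had log2 fold changes between -0.07 and 0.03.

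Of the prolyl hydroxylase genes, *Egln3* and *Egln1* were lower and *Egln2* did not pass. *Egln3*, which encodes PHD3, a hydroxylase that HIF induces in many cells, read 193 and 192 in *Rictor*-/- and 342 and 347 in WT cells. The *Rictor*-/- arrays differed by less than 1 unit and lay far below the WT arrays, with means of 193 ± 0.278 and 344 ± 3.61 (SD, n = 2 each). This was a log2 fold change of -0.79 (SE 0.06, 95% interval -0.92 to -0.66, limma adjusted p = 2.76e-06), the 23rd largest fall of all genes. A second *Egln3* probe set, from the same source sequence, read 54.6 and 54.5 against 126 and 131. It was 2.36-fold higher in WT cells by mean intensity, with a log2 fold change of -1.03 (SE 0.07, limma adjusted p over all probe sets 4.98e-05).

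*Egln1* encodes PHD2, the main hydroxylase of HIF-1α under normal oxygen. It read 332 and 335 in *Rictor*-/- and 429 and 463 in WT cells. The groups stood apart with means of 333 ± 2.03 and 446 ± 24.1 (SD, n = 2 each), and the log2 fold change was -0.40 (SE 0.06, 95% interval -0.53 to -0.28, limma adjusted p = 0.000312). Its second probe set, from the same source sequence, read 101.6 and 101.2 against 107 and 117, a log2 fold change of -0.13 (SE 0.08) that did not pass the limma fit over all probe sets (adjusted p = 0.374). *Egln2*, which encodes PHD1, has a single probe set and read 267 and 264 against 274 and 264. Its groups overlapped, and the log2 fold change was -0.02 with a 95% interval of -0.15 to 0.11 (limma adjusted p = 0.876). Whether the change differed between the hydroxylase genes was not tested.

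*Vhl*, the substrate receptor of the ligase that ends the life of hydroxylated HIF-1α, moved the other way. It read 160.1 and 161 in *Rictor*-/- and 134 and 135 in WT cells. The groups did not overlap, with a log2 fold change of 0.23 (SE 0.07, 95% interval 0.08 to 0.37, limma adjusted p = 0.0283). This call was lost when any array was left out, with adjusted p between 0.0871 and 0.144 in limma, and in the fit over all probe sets (limma adjusted p = 0.059). Its other probe set was not above the array medians and had a log2 fold change of 0.11 (limma adjusted p over all probe sets 0.438).

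Of the transporter genes, *Slc2a3* was higher and *Slc2a1* did not pass. *Slc2a3*, which encodes GLUT3, a glucose transporter of high affinity, read 1671 and 1676 in *Rictor*-/- and 918 and 893 in WT cells. Both *Rictor*-/- arrays were far above both WT arrays, with means of 1674 ± 3.45 and 906 ± 18.04 (SD, n = 2 each). The log2 fold change was 0.87 (SE 0.04, 95% interval 0.78 to 0.97, limma adjusted p = 1.12e-07), the 54th largest rise of all genes. A second probe set of the same source sequence read 554 and 516 against 263 and 255, 2.07-fold higher by mean intensity, with a log2 fold change of 1.003 (SE 0.06, limma adjusted p over all probe sets 1.88e-05). By their suffixes these probe sets may match other transcripts too. Its remaining 2 probe sets were not above the array medians, with log2 fold changes of -0.05 and -0.0039.

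*Slc2a1*, which encodes GLUT1, the transporter most often linked to T cell activation, read 433 and 379 in *Rictor*-/- and 436 and 440 in WT cells. The second *Rictor*-/- array was well below the others while the first lay close to the WT arrays, and the groups did not overlap. The log2 fold change was -0.11 with a 95% interval of -0.25 to 0.03 (limma adjusted p = 0.303). It was -0.20 without the first *Rictor*-/- array and -0.016 without the second, so that its size depended on which of these arrays was kept. Its other probe sets had log2 fold changes of -0.08 and 0.01. The 95% intervals of *Slc2a1* and *Slc2a3* did not overlap, although the difference between their changes was not tested.

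The HIF target genes in the set were lower in both *Rictor*-/- arrays without passing the threshold. *Bnip3* encodes a receptor that sends mitochondria to autophagy, and it read 159.1 and 158.7 in *Rictor*-/- and 182 and 181 in WT cells. The groups stood apart, with a log2 fold change of -0.17 (SE 0.06, 95% interval -0.31 to -0.03, the intervals being unadjusted for the number of genes) and a limma adjusted p of 0.0812. *Ankrd37*, an ankyrin-repeat gene induced by HIF-1, read 225 and 202 against 255 and 242. Again the groups did not overlap, and the log2 fold change was -0.20 (SE 0.07, 95% interval -0.35 to -0.06, limma adjusted p = 0.0531). Both passed in limma after quantile normalization, at adjusted p = 0.0473 for *Bnip3* and 0.0327 for *Ankrd37*. Most alternatives did not call them, 10 of 14 for *Bnip3* and 9 of 14 for *Ankrd37*. The log2 fold change of *Ankrd37* was -0.28 without the first *Rictor*-/- array and -0.13 without the second.

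**Figure D2:**
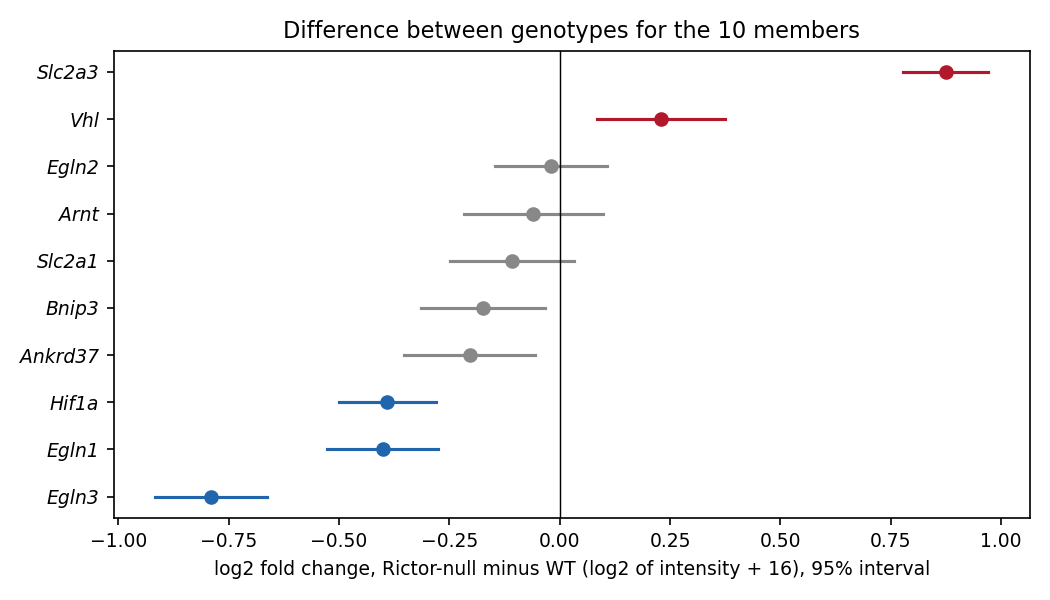
Log2 fold change of each member, *Rictor*-/- minus WT on the log2(intensity + 16) scale, with 95% intervals from limma. *Slc2a3* at 0.87 and *Vhl* at 0.23 lie to the right of 0, *Egln3* at -0.79, *Egln1* at -0.40 and *Hif1a* at -0.39 to the left, and the intervals of *Arnt*, *Egln2* and *Slc2a1* reach across 0.

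Over all 25 probe sets, 19 were above the median of every array. For 5 of the 6 members with at least 2 such probe sets these had one sign throughout, *Slc2a1* being the exception. Those of *Egln1*, *Egln3* and *Slc2a3* come from the same source sequence within each gene and are not independent. Those of *Arnt*, at -0.06 and -0.03, did not pass.

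**Figure D3:**
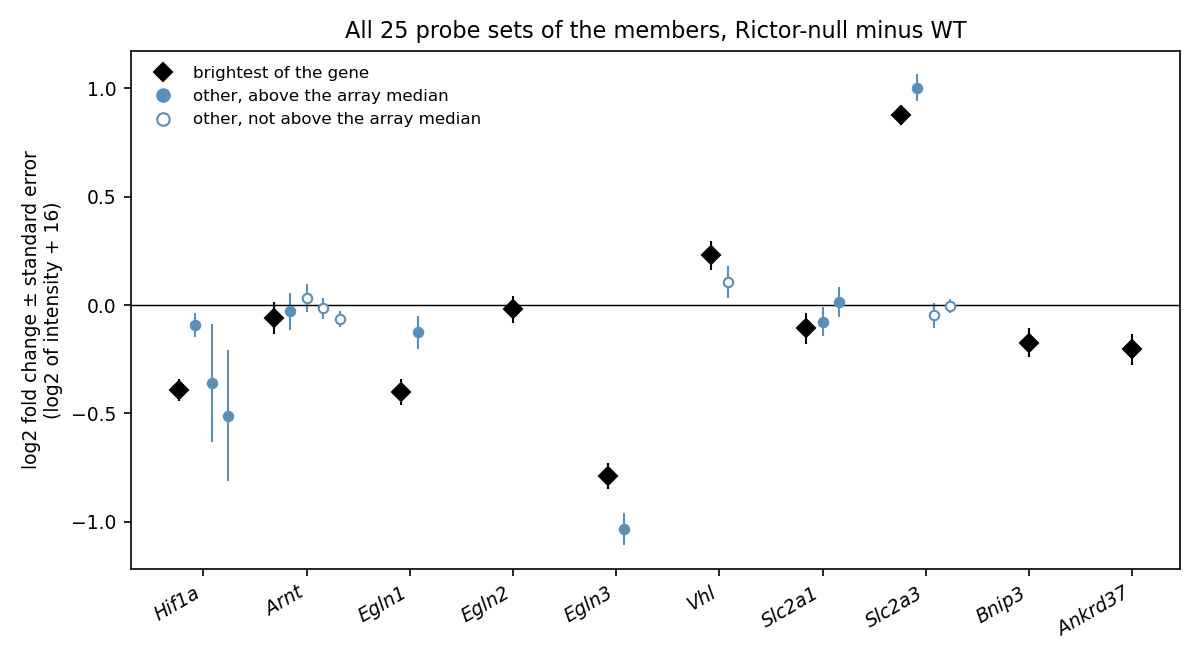
Log2 fold change of all 25 probe sets of the members, grouped by gene, *Rictor*-/- minus WT, with the brightest of each gene and the dim ones (not above the median of every array) marked and bars of ± 1 standard error. Both bright *Slc2a3* probe sets lie near 0.87 and 1.003 and both *Egln3* probe sets near -0.79 and -1.03, while the further *Hif1a* and *Egln1* probe sets spread between -0.51 and -0.09.

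Among 16 measured genes of the HIF machinery other than the members, 3 were higher, 4 lower and 9 did not pass. Over all genes 12.5% were higher and 7.18% lower. The median log2 fold change was -0.13 for these 16 genes and 0.0068 for all genes. *Epas1*, which encodes the HIF-2α subunit, read 152 and 141 in *Rictor*-/- and 172 and 190.1 in WT cells, below the WT values on both arrays (log2 fold change -0.28, limma adjusted p = 0.017). *Hif3a* (-0.14), *Arnt2* (-0.16) and *Hif1an*, which encodes the asparaginyl hydroxylase FIH (-0.12), did not pass. The partners of VHL split. *Eloc* (0.38) and *Elob* (0.33), the elongin adaptors, were higher, whereas *Cul2* (0.08) and *Rbx1* (0.02), its scaffold and RING subunit, did not pass. The coactivator genes *Crebbp* (-0.48) and *Ep300* (-0.24) and *Cited2* (-0.20), whose product competes with HIF-1α for them, were lower. *Usp20*, encoding a deubiquitinase of HIF-1α, was higher (0.48). The 4 lower became 2 without the second *Rictor*-/- array, 1 without either WT array and 2 with averaged probe sets, and the 3 higher became 1 without the second WT array and 2 with averaged probe sets.

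Glycolytic HIF-1 targets were lower or did not pass. Of 15 measured, 8 were lower, 0 higher and 7 did not pass in limma, beside 7.18% of all genes lower and 12.5% higher. The unadjusted limma p was under 0.05 for 0 of these targets in the higher direction and for 8 in the lower direction. Over all 18193 genes it was under 0.05 for 3275 higher and 2181 lower. The methods' own unadjusted test also called 0 of the targets higher, and 3141 of all genes. Their median log2 fold change was -0.15. *Hk1*, a hexokinase gene, read 428 and 389 in *Rictor*-/- and 528 and 504 in WT cells (log2 fold change -0.33, limma adjusted p = 0.00171). *Aldoa*, the aldolase gene, read 1699.7 and 1756 against 2130.2 and 2102 (-0.29, limma adjusted p = 0.000337). *Pgam1* (-0.32), *Pfkfb3* (-0.32) and *Pfkl* (-0.27) were also lower, as were *Pfkp* (-0.23), *Pkm* (-0.21) and *Tpi1* (-0.15). *Ldha*, the lactate dehydrogenase gene, read 2538 and 2708 against 2640.3 and 2582, and the groups overlapped (log2 fold change 0.0059). *Pgk1* (-0.07), *Pdk1* (-0.03) and *Hk2* (0.08), another hexokinase gene, did not pass. The count of 8 fell to between 1 and 5 when single arrays were left out, with 1 without the first WT array, 3 without the second WT array, 4 without the first *Rictor*-/- array and 5 without the second.

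Of the other HIF-1 targets, 9 of 33 were higher, 2 lower and 22 did not pass, with a median log2 fold change of 0.02. These counts stand beside 12.5% of all genes higher and 7.18% lower. Whether the list differed from all genes in either direction was not tested. *Ddit4*, which encodes the mTORC1 inhibitor REDD1, read 330 and 327 in *Rictor*-/- and 849 and 892 in WT cells. Both *Rictor*-/- values were well under the WT values, with a log2 fold change of -1.36 (SE 0.05, limma adjusted p = 1.08e-08). *Ak4*, a mitochondrial adenylate kinase gene, was lower by -0.50, although 1 of its 3 probe sets above the array medians had the opposite sign. *Bhlhe40*, encoding a transcriptional repressor, read 849 and 852 against 562 and 573 and was higher in both *Rictor*-/- arrays (log2 fold change 0.57, limma adjusted p = 7.31e-06). *Angptl4* (0.48) and *Higd1a* (0.40), the latter encoding a mitochondrial protein, were higher. *Vegfa*, *Adm* and *Car9*, widely used readouts of hypoxia, were not above the array medians. The count of 9 higher dropped to 3 without either WT array and to 5 without the first *Rictor*-/- array.

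Beside 12.5% of all genes higher and 7.18% lower, none of the 12 other genes listed as hexose transporters passed in limma. Of these, 1 was higher and 1 lower at an unadjusted limma p under 0.05, and 5 were not above the array medians. The methods' unadjusted test called 0 of the 12 higher and 0 lower. Over all 18193 genes that limma p gave 3275 higher and 2181 lower, and the methods' unadjusted test 3141 and 2230. Regulators of transporters gave 0 higher and 3 lower of 9, beside the same 12.5% and 7.18%. At an unadjusted limma p under 0.05 they gave 2 higher and 3 lower, and the methods' unadjusted test called 3 higher. These stand beside the same 3275, 2181 and 3141 of all genes. The genes that were lower were *Tbc1d4* (log2 fold change -0.39) and *Tbc1d1* (-0.28), Rab GTPase-activating proteins that AKT phosphorylates, and *Mlxip* (-0.24), which encodes the glucose-sensing factor MondoA. With either WT array left out 0 of these 3 calls remained, and 2 genes were called lower without either *Rictor*-/- array. *Txnip*, whose product promotes removal of GLUT1 from the surface, did not pass (0.14, limma adjusted p = 0.0572). Among 10 mitophagy receptors and adaptors other than *Bnip3*, 1 was higher, *Fundc1* (0.28), and 1 lower, *Nlrx1* (-0.38), both mitochondrial receptors, beside 12.5% and 7.18% of all genes. Without either WT array 0 were higher, without the second *Rictor*-/- array 2 were, and without the second WT array 0 were lower.

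**Figure D4:**
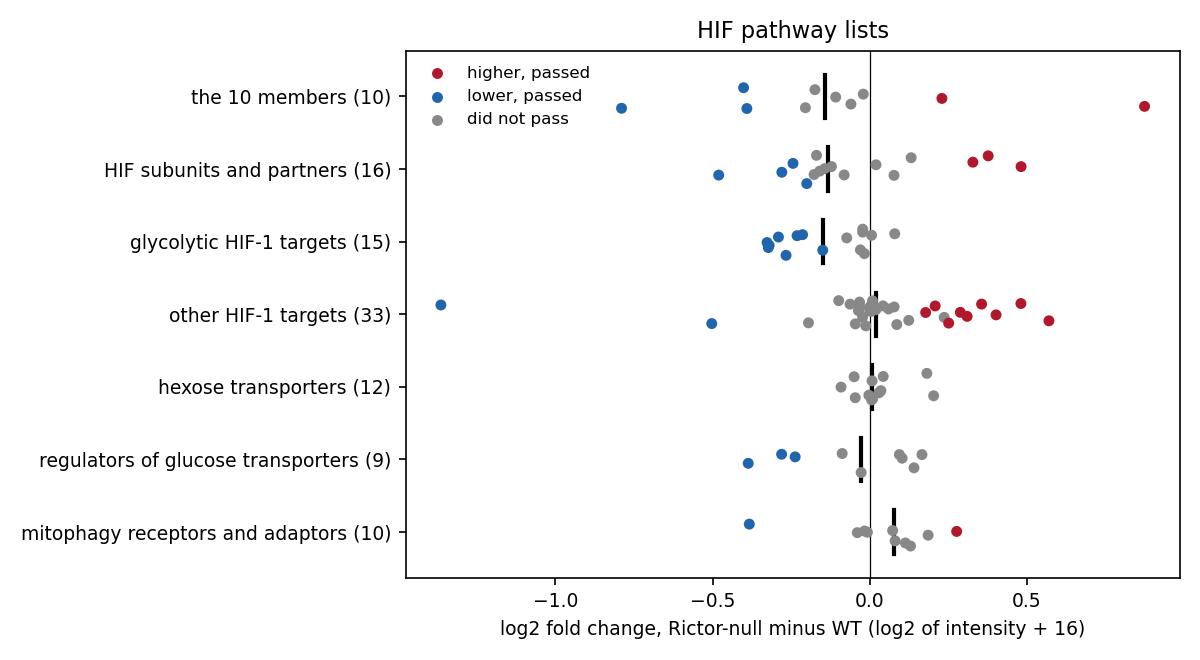
Log2 fold change, *Rictor*-/- minus WT, of each of the 10 members and of each measured gene of the lists of the HIF pathway and of glucose transport, with a bar at the median of each list and genes past the threshold (limma adjusted p under 0.05) marked. The glycolytic targets that passed all lie below 0, the other targets lie on both sides with *Ddit4* lowest at -1.36, and none of the hexose transporters passed.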

How the data were processed

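TFH cells were sorted, RNA was extracted with TRIzol, and biotin-labelled cRNA was hybridised to Affymetrix mouse arrays by a company. The authors deposited linear intensities, already scaled between arrays by the authors, whose processing notes name MAS5 and RMA without versions or roles. No genome build is given in the sources used here for the arrays.

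Of 45037 probe sets, 34945 had 1 gene symbol, 932 several and 9160 none, and only the first kind named a gene. Through Entrez numbers 34741 were found in RefSeq (GRCm38.p6), and 0 symbols changed. Intensities became log2(intensity + 16), and the probe set with the highest mean log2 value over the 4 arrays stood for a gene. The comparison used lmFit and eBayes with a trend (limma 3.58.1, R 4.3.3) and Benjamini-Hochberg adjustment over 18193 genes at 0.05. The steps were tested on simulated data. Other probe sets of members were read from a limma fit over all probe sets.

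The members and lists were chosen with earlier results of these data known. The rule named every member with all its probe sets, the 5 largest changes past the threshold in each list, HIF subunits, FIH and partners of VHL, and markers. *Ep300*, *Cited2*, *Pfkp*, *Pkm*, *Tpi1*, *Ldha*, *Pgk1*, *Pdk1*, *Hk2*, *Vegfa*, *Adm*, *Car9* and *Txnip* were named after their values were seen. Alternatives were other scalings, filters, summaries of probe sets, pseudocount, variance model, block and tests, and each array left out. The number of arrays limits precision.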

Additional observations from a re-analysis of the deposited data

How the results depend on the processing

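Directions of the members held under every alternative run except for *Egln2*, at 0.0036 without the first WT array and -0.0443 without the second. *Egln3* and *Slc2a3* kept their calls in 14 of 15 alternatives, *Egln1* in 13, *Hif1a* in 12, and *Vhl* in 7 of 14. The replicate numbers are only shared numbers (same-numbered arrays deviated with r = -0.0321), and the replicate block called 2360 genes higher and 1375 lower, with *Ankrd37* added to the members that fell (limma adjusted p = 0.035) and no member's call lost. Members called higher numbered 1 when all probe sets of a gene were averaged, 1 with all probe sets tested together and 1 without any single array. Members called lower numbered 5 with quantile normalization and 3 to 5 with single arrays left out, 5 without the first *Rictor*-/- array. The methods' one-tailed t-test after Benjamini-Hochberg called 0 members either way, 0 glycolytic targets lower, 0 other targets higher or lower, and 3 genes each way. Unadjusted it called 2230 genes lower. Glycolytic targets called lower numbered 5 with averaged probe sets, 5 with all probe sets together, 4 without the trend and 1 to 5 with arrays left out. Other targets called higher numbered 4 and lower 1 with averaged probe sets, and 3 to 8 higher with arrays left out. Over all genes, leaving out arrays gave 931 to 1992 higher (1004 and 931 without the first and second WT array) and 456 to 1045 lower (456 and 497), and the mean of all probe sets gave 842 lower, against 2281 and 1306. Where an array was left out, the remaining one of its group was assumed to vary like the other group. The second-brightest probe set, chosen after seeing the data, lost the calls of *Hif1a* (-0.09) and *Egln1* (-0.13). The cause was not tested in any of these. Dim probe sets limit what can be read of *Vegfa* and the weaker transporters.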
